A study of Rattus norvegicus with 9 samples.

Results

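Fatty acid oxidation and the peroxisome were followed through 36 genes in kidneys of rats given the antibiotic prodrug colistin methanesulfonate sodium (CMS). The genes were listed by name for their enzyme, transport or regulatory role, with earlier results of these data known. On the array, 35 of the 36 had a probe set assigned to a single gene, out of 14217 such genes, and Acaa1a, a peroxisomal thiolase, had none. Of the 35, 33 passed the intensity minimum, a mean log2 value of 5 over the 9 arrays, and entered the test with 10337 genes in all. Acox3 and Ppara fell short of it. The 33 tested genes comprised 18 mitochondrial genes, 10 peroxisomal genes, 3 genes whose products work in both organelles and 2 regulators.

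All 9 rats were of the outbred Sprague-Dawley stock, were 8 weeks old when bought, had 1 week to acclimate and were injected into the peritoneum every day for 7 days. The vehicle group received saline with 0 mg/kg CMS, the CMS25 group 25 mg/kg and the CMS50 group 50 mg/kg, with 3 rats and 3 arrays each. The labels record tubular damage with necrosis and casts for the CMS50 group. Whole right kidneys were measured, so the values mix all cell types of the organ and a lower level cannot be divided into fewer cells of a type and less RNA per cell. Values are deposited log2 intensities, group values are means ± SD with n = 3, and a gene is said to have risen or fallen where its Benjamini-Hochberg adjusted p from limma, taken over all 10337 genes, was under 0.05.

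Mitochondrial beta-oxidation shortens fatty acids that have been activated to acyl-CoA and carried in as carnitine esters, and hands the electrons to the respiratory chain. Peroxisomes shorten very long and branched chains, break down the methyl-branched phytanic acid by alpha-oxidation and handle bile acid side chains. The proximal tubule is rich in both organelles and draws most of its energy from fatty acids. PPARalpha, a nuclear receptor for fatty acids, is a known activator of genes in both sets, with PGC-1alpha as a coactivator.

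At CMS50, fatty acid oxidation and peroxisome genes were lower than in vehicle kidneys. Of the 33 tested, 17 fell and 0 rose, where 11.4% of all genes fell and 19.6% rose. The median log2 difference of the 33 genes was -0.39 and that of all genes 0.05. Among the 18 mitochondrial genes 7 fell, with a median of -0.15. Among the 10 peroxisomal genes 8 fell, with a median of -0.53, and of the 3 shared genes 2 fell, with a median of -0.54. The difference between the mitochondrial and the peroxisomal genes was not tested. Neither of the 2 regulators passed the test. In 22 of the 33 genes every CMS50 array lay below every vehicle array, against 19.1% of all genes. These 22 were 11 mitochondrial, 8 peroxisomal and 3 shared genes. No member had all CMS50 arrays above the vehicle arrays, against 30.6% of all genes.

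**Figure D1:**
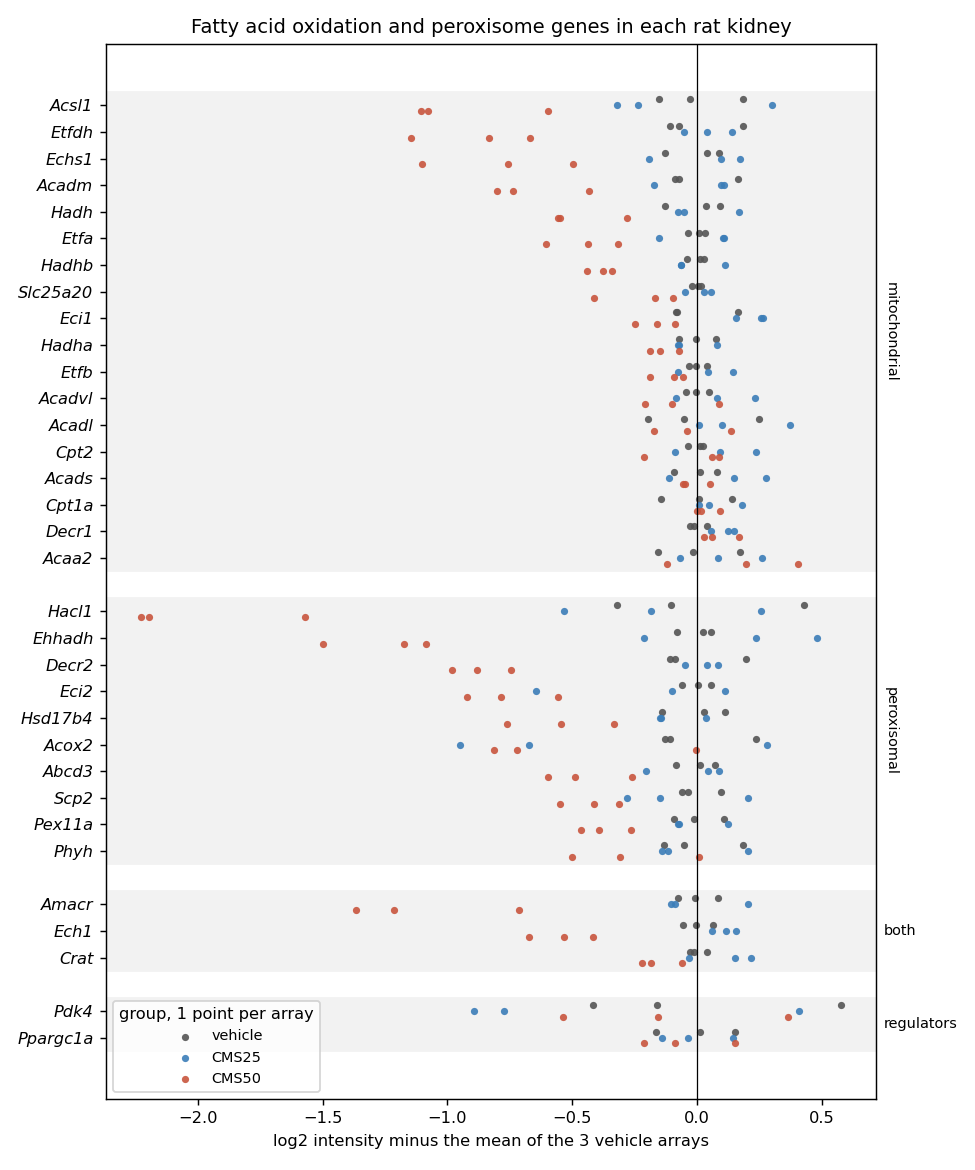
Log2 intensity of each of the 33 tested genes in each array, as the difference from the mean of the 3 vehicle arrays, with 1 point per array and the genes ordered by organelle and change. The CMS25 points lie around 0, and the CMS50 points of Hacl1, Ehhadh, Amacr, Acsl1 and Etfdh lie farthest to the left.

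Each CMS50 kidney showed the lower levels, to differing extents. The median of the 33 genes relative to the vehicle mean was -0.49, -0.41 and -0.26 in CMS50 replicates 1, 2 and 3, and 27, 26 and 22 of the 33 genes lay below the lowest vehicle array. Of all genes, 34.5%, 32.7% and 27.0% did so in the same arrays. For the peroxisomal genes these medians were -0.64, -0.79 and -0.36, and for the mitochondrial genes -0.20, -0.18 and -0.11. CMS50 replicate 3 was the least affected: it was the highest of the CMS50 arrays in 16 of the 17 genes that fell. Without it 17 genes still fell. In the CMS25 kidneys the medians of the 33 genes were 0.05, -0.05 and 0.11.

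Markers of other cells, of injury and of RNA quality differed at CMS50, and their part in the lower levels was not tested. At CMS25 no marker passed the test, where 0.00% of all genes did. Sums of linear intensity cover every listed marker on the array, also those below the intensity minimum. Summed linear intensity of 15 of 16 listed proximal tubule markers ranged from 92799 to 96900 in vehicle, from 91582 to 102944 in CMS25 and from 76601 to 94430 in CMS50 kidneys. At CMS50 4 of these markers fell (26.7%) and 2 rose (13.3%), with a median log2 difference of 0.05. Of all genes 11.4% fell and 19.6% rose, and the counts that follow are read against these shares. Of 7 markers of the thick ascending limb and distal tubule 5 fell (71.4%). The sum of the 7 ranged from 26935 to 30442 in vehicle, from 26486 to 29981 in CMS25 and from 8649 to 25769 in CMS50 kidneys. Of 7 collecting duct markers 2 fell (28.6%) and 0 rose, with a median log2 difference of -0.35. These summed to 4140 to 5067 in vehicle, 3831 to 6762 in CMS25 and 2251 to 3774 in CMS50 kidneys. Of 11 tested macrophage markers 10 rose (90.9%). The 12 on the array summed to 847 to 958 in vehicle, 776 to 982 in CMS25 and 1622 to 2958 in CMS50 kidneys. All 6 tested fibroblast markers rose (100%). The 8 on the array summed to 1200 to 1437 in vehicle, 789 to 2294 in CMS25 and 3080 to 7761 in CMS50 kidneys. Of the tubular injury markers 7 of 9 rose (77.8%), and of the proliferation markers 7 of 8 (87.5%). Of 6 tested adipose markers 2 fell (33.3%). The 9 on the array summed to 2149 to 3032 in vehicle, 1980 to 4452 in CMS25 and 1343 to 1501 in CMS50 kidneys. The fat cell markers Lep, Plin1 and Ucp1 and the adrenal markers Cyp11a1, Cyp11b1, Cyp17a1 and Star were below the intensity minimum. Of 2 tested adrenal markers 0 passed the test, with a median log2 difference of -0.41. The 6 on the array summed to 177 to 206 in vehicle, 175 to 270 in CMS25 and 142 to 183 in CMS50 kidneys. The log2 ratio of 3′ to 5′ beta-actin signal, a sign of RNA breakdown, was 2.98 ± 0.155 in vehicle, 3.17 ± 0.120 in CMS25 and 3.58 ± 0.0854 in CMS50 kidneys. That of GAPDH was 0.542 ± 0.0286, 0.698 ± 0.209 and 0.816 ± 0.0622. For CMS50 against vehicle the exact two-sided permutation p was 0.1 for each control, the smallest that 3 against 3 arrays allow.

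The 2 largest falls were in the peroxisomal genes Hacl1 and Ehhadh, followed by Amacr, Acsl1 and Etfdh. Hacl1 encodes the lyase that cuts the 2-hydroxyacyl-CoA made from phytanic acid in alpha-oxidation. Its log2 intensity was 9.85, 10.39 and 9.64 in the vehicle kidneys, 9.77, 9.43 and 10.21 at CMS25 and 7.76, 7.73 and 8.39 at CMS50. The CMS50 arrays stood more than 1 log2 unit below every other array, and the CMS25 arrays overlapped the vehicle arrays. Hacl1 fell 4.0-fold (log2 difference -2.0, SE 0.26, adjusted p = 0.00223). Phyh, the hydroxylase of the step before it, did not pass the test, at 12.39 ± 0.16 in vehicle and 12.12 ± 0.26 in CMS50 kidneys (log2 difference -0.27, 95% interval -0.61 to 0.08, adjusted p = 0.211).

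Ehhadh is the bifunctional hydratase and dehydrogenase of the straight-chain peroxisomal pathway. Vehicle kidneys read 10.63, 10.66 and 10.53, CMS25 kidneys 11.09, 10.39 and 10.84, and CMS50 kidneys 9.11, 9.43 and 9.52. The CMS25 arrays spread to either side of the vehicle arrays, whereas the CMS50 arrays were all lower, and the fall was 2.38-fold (log2 difference -1.25, SE 0.17, adjusted p = 0.00251). Hsd17b4, the bifunctional enzyme that serves branched chains and bile acid intermediates, fell less. It read 11.55, 11.30 and 11.47 in vehicle, 11.30, 11.48 and 11.29 at CMS25 and 10.90, 10.68 and 11.11 at CMS50 (log2 difference -0.55, SE 0.12, adjusted p = 0.0118). The vehicle and CMS25 arrays overlapped, and the CMS50 arrays lay below them.

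Decr2 and Eci2 encode the peroxisomal dienoyl-CoA reductase and enoyl-CoA isomerase that prepare unsaturated chains. Decr2 was 10.96, 10.68 and 10.65 in vehicle, 10.72, 10.85 and 10.81 at CMS25 and 9.78, 9.88 and 10.02 at CMS50, a fall of 1.83-fold (log2 difference -0.87, SE 0.11, adjusted p = 0.00206). Eci2 was 10.83, 10.88 and 10.77 in vehicle, 10.73, 10.18 and 10.94 at CMS25 and 10.04, 9.90 and 10.27 at CMS50, a fall of 1.69-fold (log2 difference -0.75, SE 0.18, adjusted p = 0.0142). In Decr2 the CMS25 arrays stayed near the vehicle arrays, and in Eci2 CMS25 replicate 2 lay within the range of the CMS50 arrays.

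Import, thiolysis and organelle number were represented by Abcd3, Scp2 and Pex11a, and all 3 fell at CMS50. Abcd3, the membrane transporter for branched and long-chain acyl-CoA, went from 11.21 ± 0.08 to 10.76 ± 0.17 (log2 difference -0.45, adjusted p = 0.0197). Scp2, which encodes a thiolase and a lipid transfer protein, went from 12.11 ± 0.08 to 11.68 ± 0.12 (log2 difference -0.42, adjusted p = 0.0354). Pex11a, which promotes division of peroxisomes, went from 8.87 ± 0.10 to 8.49 ± 0.10 (log2 difference -0.37, adjusted p = 0.0205). The arrays of vehicle and CMS50 did not overlap in any of the 3. Acox2, the oxidase for branched chains and bile acid intermediates, varied widely. It read 7.41, 7.75 and 7.39 in vehicle, 6.84, 6.57 and 7.80 at CMS25 and 6.79, 6.70 and 7.51 at CMS50, with overlap between the groups (log2 difference -0.51, 95% interval -1.22 to 0.20, adjusted p = 0.242). Acox3, a further oxidase, lay below the intensity minimum, at 4.91 ± 0.29 in vehicle and 4.81 ± 0.24 in CMS50 kidneys.

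Of the 3 genes whose products work in both organelles, Amacr and Ech1 fell and Crat did not pass the test. Amacr encodes the racemase that turns branched acyl-CoA into the form beta-oxidation accepts. It read 12.40, 12.31 and 12.24 in vehicle, 12.21, 12.23 and 12.52 at CMS25 and 11.10, 10.95 and 11.60 at CMS50, a fall of 2.14-fold (log2 difference -1.10, SE 0.16, adjusted p = 0.00296). Ech1, a dienoyl-CoA isomerase, read 11.49, 11.62 and 11.55 in vehicle, 11.71, 11.61 and 11.67 at CMS25 and 10.88, 11.02 and 11.14 at CMS50 (log2 difference -0.54, SE 0.09, adjusted p = 0.00387). In both genes CMS50 replicate 3 was the highest of its group and still lay below every array of the other groups. Crat, the carnitine acetyltransferase, was 9.60 ± 0.03 in vehicle and 9.45 ± 0.09 in CMS50 kidneys, with no overlap between their arrays (log2 difference -0.16, 95% interval -0.36 to 0.05, adjusted p = 0.224).

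**Figure D2:**
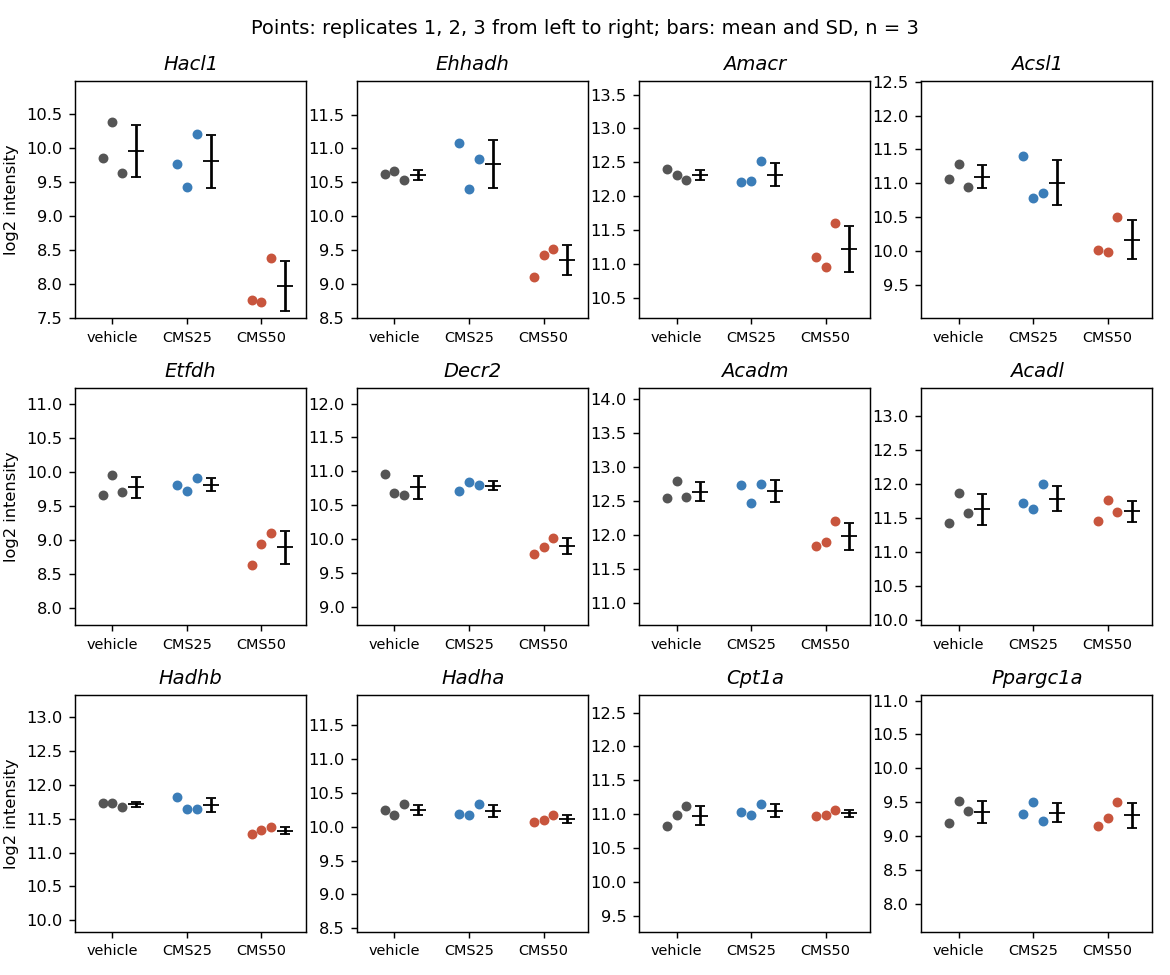
Log2 intensity of 12 genes in the 9 arrays, with replicates 1 to 3 from left to right in each group and the mean and SD (n = 3) as a bar; each panel spans the same range of log2 units. Hacl1, Ehhadh, Amacr, Acsl1, Etfdh, Decr2, Acadm and Hadhb are lower at CMS50, while Acadl, Hadha, Cpt1a and Ppargc1a did not pass the test.

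In mitochondria the 7 genes that fell were Acsl1, Acadm, Echs1, Hadh, Hadhb, Etfa and Etfdh. Acsl1, the long-chain acyl-CoA synthetase that activates fatty acids, read 11.07, 11.28 and 10.94 in vehicle, 11.40, 10.78 and 10.86 at CMS25 and 10.02, 9.99 and 10.50 at CMS50. Its CMS50 arrays lay below all others, a fall of 1.90-fold (log2 difference -0.93, SE 0.19, adjusted p = 0.00863). The carnitine shuttle that carries the activated chains inward did not pass the test at the probe sets used for its 3 genes; a second probe set of Cpt1a, given further on, fell. Cpt1a, the acyltransferase that gates entry, read 10.83, 10.98 and 11.11 in vehicle, 11.03, 10.98 and 11.15 at CMS25 and 10.98, 10.99 and 11.07 at CMS50, within the vehicle range (log2 difference 0.04, 95% interval -0.18 to 0.25, adjusted p = 0.802). Cpt2, which returns the chain to CoA on the inner membrane, read 8.53, 8.58 and 8.59 in vehicle, 8.80, 8.66 and 8.48 at CMS25 and 8.35, 8.66 and 8.63 at CMS50, and its groups overlapped (log2 difference -0.02, 95% interval -0.27 to 0.23, adjusted p = 0.902). Slc25a20, the carrier between them, differed by -0.23 with no overlap of the arrays (95% interval -0.44 to -0.01, adjusted p = 0.1).

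The 4 acyl-CoA dehydrogenases, which open each round of the spiral, differed in their outcome. Acadm, which acts on medium chains, read 12.54, 12.80 and 12.56 in vehicle, 12.73, 12.46 and 12.74 at CMS25 and 11.83, 11.90 and 12.20 at CMS50. It fell 1.58-fold (log2 difference -0.66, SE 0.13, adjusted p = 0.00703), with the CMS50 arrays apart from the rest. Acadl, which acts on long chains, read 11.43, 11.88 and 11.58 in vehicle, 11.73, 11.63 and 12.00 at CMS25 and 11.46, 11.76 and 11.59 at CMS50. Its CMS50 arrays lay within the range of the vehicle arrays (log2 difference -0.03, 95% interval -0.35 to 0.30, adjusted p = 0.908). Acads, for short chains, read 9.05, 9.15 and 9.22 in vehicle, 9.03, 9.41 and 9.28 at CMS25 and 9.19, 9.09 and 9.08 at CMS50, again with overlap (log2 difference -0.02, 95% interval -0.26 to 0.23, adjusted p = 0.916). Acadvl, for very long chains, differed by -0.07 (95% interval -0.32 to 0.17, adjusted p = 0.636).

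The hydration and second oxidation steps on shorter chains fell. Echs1, the enoyl-CoA hydratase, read 10.98, 11.20 and 11.15 in vehicle, 11.28, 10.91 and 11.20 at CMS25 and 10.00, 10.35 and 10.61 at CMS50, a fall of 1.72-fold (log2 difference -0.79, SE 0.16, adjusted p = 0.00768). Hadh, the 3-hydroxyacyl-CoA dehydrogenase, read 11.53, 11.47 and 11.31 in vehicle, 11.61, 11.38 and 11.36 at CMS25 and 10.88, 10.89 and 11.16 at CMS50 (log2 difference -0.46, SE 0.11, adjusted p = 0.0161). In both genes the vehicle and CMS25 arrays overlapped and the CMS50 arrays lay below them. The thiolase Acaa2 (log2 difference 0.16, adjusted p = 0.449) did not pass the test. Nor did the auxiliary enzymes Eci1 (-0.17, adjusted p = 0.213) and Decr1 (0.09, adjusted p = 0.434), whose peroxisomal counterparts Eci2 and Decr2 fell.

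The trifunctional protein carries out the last 3 steps on long chains and is built from the products of Hadha and Hadhb. Hadhb, the thiolase subunit, read 11.72, 11.74 and 11.67 in vehicle, 11.82, 11.64 and 11.65 at CMS25 and 11.27, 11.33 and 11.37 at CMS50. It fell 1.31-fold (log2 difference -0.39, SE 0.08, adjusted p = 0.00952). Hadha, the hydratase and dehydrogenase subunit, read 10.25, 10.18 and 10.33 in vehicle, 10.18, 10.17 and 10.33 at CMS25 and 10.06, 10.11 and 10.18 at CMS50. Its arrays stood close together and it did not pass the test (log2 difference -0.14, 95% interval -0.33 to 0.05, adjusted p = 0.249). The 2 genes lie head to head on chromosome 6 and are transcribed away from each other. The 300 bases that separate their starts (RefSeq, GRCr8, chr6:31907501-31907800, plus strand, from the Hadhb start to the Hadha start) are shown because they flank both genes. Capitals mark the motif GGGCGG, a GC box, which occurs 2 times, here on the opposite strand.

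Hadhb to Hadha: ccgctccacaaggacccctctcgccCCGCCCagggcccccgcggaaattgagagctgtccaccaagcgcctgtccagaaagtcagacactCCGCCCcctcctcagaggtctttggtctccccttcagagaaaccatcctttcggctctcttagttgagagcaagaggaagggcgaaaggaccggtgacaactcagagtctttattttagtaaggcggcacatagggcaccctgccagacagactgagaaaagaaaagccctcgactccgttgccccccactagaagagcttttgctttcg

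Electron transfer from the dehydrogenases to the respiratory chain runs through the flavoprotein subunits Etfa and Etfb to the membrane dehydrogenase Etfdh. Etfdh read 9.66, 9.95 and 9.70 in vehicle, 9.81, 9.72 and 9.91 at CMS25 and 8.63, 8.94 and 9.11 at CMS50. All CMS50 arrays were lower, and the fall was 1.84-fold (log2 difference -0.88, SE 0.14, adjusted p = 0.00321). Etfa fell from 11.78 ± 0.03 to 11.32 ± 0.14 (log2 difference -0.45, SE 0.11, adjusted p = 0.0131), while Etfb was 11.72 ± 0.04 and 11.60 ± 0.07 and did not pass the test (log2 difference -0.11, 95% interval -0.31 to 0.08, adjusted p = 0.344). In Etfb, too, the CMS50 arrays lay below the vehicle arrays.

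No regulator passed the test at the probe sets used. Ppara, the receptor itself, was below the intensity minimum, at 4.08, 4.10 and 3.78 in vehicle, 4.47, 3.57 and 4.12 at CMS25 and 4.07, 4.19 and 4.19 at CMS50, and was not tested. Ppargc1a, which encodes PGC-1alpha, read 9.19, 9.51 and 9.37 in vehicle, 9.32, 9.50 and 9.22 at CMS25 and 9.14, 9.27 and 9.51 at CMS50. Its groups overlapped throughout (log2 difference -0.05, 95% interval -0.34 to 0.24, adjusted p = 0.794). Pdk4, a kinase that restrains pyruvate oxidation and a known PPARalpha target, was the most variable. It read 9.09, 8.83 and 9.82 in vehicle, 9.66, 8.35 and 8.47 at CMS25 and 9.61, 8.71 and 9.09 at CMS50 (log2 difference -0.11, 95% interval -0.97 to 0.76, adjusted p = 0.851).

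Some genes were read by more than 1 probe set, and for Cpt1a and Ppargc1a the choice decides the result. With every probe set tested, the second Cpt1a probe set, 1367836_at, read 7.47, 7.65 and 7.63 in vehicle, 7.71, 7.49 and 7.79 at CMS25 and 6.92, 7.05 and 7.19 at CMS50. It fell (log2 difference -0.53, SE 0.11, adjusted p = 0.0102), unlike the brighter 1386946_at described above. For Ppargc1a, 1395518_at fell by 0.43 on the log2 scale (adjusted p = 0.0295), and 1370089_at differed by -0.66 without passing the test (adjusted p = 0.0530). The values of Cpt1a and Ppargc1a are therefore those of a probe set and not of all transcripts of the gene. Further probe sets of Scp2 (-0.81, adjusted p = 0.0123), Pex11a (-0.85, adjusted p = 0.00186) and Acsl1 (-0.92, adjusted p = 0.00734) fell as the brighter ones did. Those of Hadha (-0.08), Phyh (-0.21), Acaa2 (0.03) and Pdk4 (-0.42) did not pass the test, like the brighter ones. What the probe sets of a gene match was not analysed here.

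**Figure D3:**
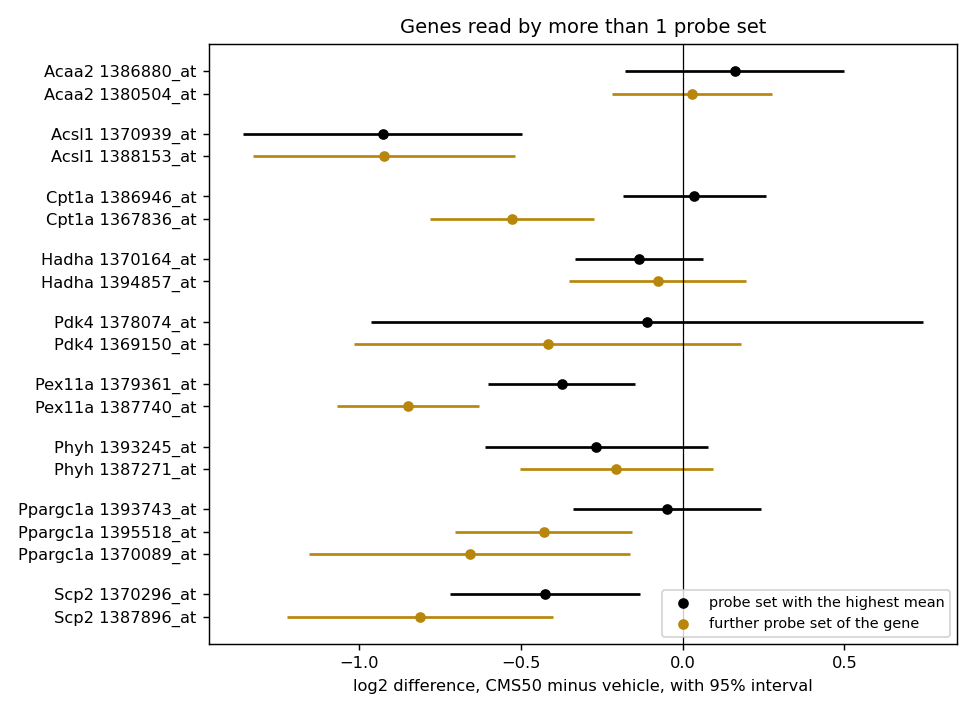
Log2 difference of CMS50 minus vehicle, with the 95% interval of the fit, for the members read by more than 1 probe set above the intensity minimum. The probe sets of Acsl1, Hadha, Phyh and Acaa2 gave similar values. Those of Cpt1a (0.04 and -0.53) and Ppargc1a (-0.05, -0.43 and -0.66) did not. In Scp2 (-0.42 and -0.81), Pex11a (-0.37 and -0.85) and Pdk4 (-0.11 and -0.42) the size differed, with the same sign.

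PPARalpha binds with its partner RXR to a DR1 element, a direct repeat of AGGTCA with 1 base of any kind between the copies. This motif was searched on both strands in promoter windows from 250 bases before to 50 after the gene start (RefSeq, GRCr8), which were given for 32 of the 36 genes and not for Acadl, Acaa2, Decr1 and Ech1. Allowing 2 mismatches, 6 of the 32 windows held a match (18.8%), against 3.77% of 33469 windows. The latter are all windows given and were not limited to genes on the array or to those tested. Allowing 1 mismatch, 1 window did (3.12% against 0.439%), and an exact match stood in 0 of 32 and in 0.0538% of all windows. The 6 sites are shown with 8 bases on each side, 5′ to 3′ on the strand of the gene, with the match in capitals.

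Acadvl: gggagaagAGGTCAGTGGTCAaggcttca
Amacr: taaaccggAGACCAAAGGTCAgcagctaa
Crat: gacgttcaAGGACACCGGTCAgacttgga
Echs1: ccgctaaaAGACCTCTGATCTgatcttcc
Etfa: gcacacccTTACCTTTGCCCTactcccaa
Slc25a20: cttaatgtAGGTGAAAGGTCGgtgtagcc

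Chromosome coordinates below cover the whole printed stretch, the match with its 8 bases on each side, while positions from the gene start are those of the match. Counted from the gene start at 0, the Acadvl match runs from -17 to -5 (chr10:55236702-55236730, minus strand) and has 1 mismatch. That of Amacr runs from -208 to -196 (chr2:61673119-61673147, plus strand), and that of Crat from -223 to -211 (chr3:34087302-34087330, minus strand). The Echs1 match runs from -155 to -143 (chr1:204333641-204333669, minus strand) and the Etfa match from -154 to -142 (chr8:64788099-64788127, minus strand), in each case on the strand opposite to the gene. In Slc25a20 it lies after the start, from 15 to 27 (chr8:118243580-118243608, plus strand). Amacr, Echs1 and Etfa fell at CMS50, whereas Acadvl, Crat and Slc25a20 did not pass the test. The matches describe letters and not bound sites. The GC box GGGCGG, on either strand, stood in 25 of the 32 windows (78.1%) and in 33.1% of all windows. Among the 32, the windows of Hadha and Hadhb share 200 bases and were each counted. The GC box was searched after the windows had been looked at.

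At 25 mg/kg no member differed from vehicle by the test. With limma, 0 of the 33 genes passed, where 0.00% of all genes did. At an unadjusted p under 0.05 there was 1 member, Eci1, with a log2 difference of 0.23 (95% interval 0.01 to 0.44, unadjusted p = 0.0425, adjusted p = 0.812), and 604 of all genes. The count of members was 0 under every alternative setting run. The median of the 33 genes was 0.01, with 13 of 33 negative. For the genes with the largest falls at CMS50, the 95% intervals at CMS25 ran from -0.74 to 0.44 for Hacl1, from -0.22 to 0.56 for Ehhadh and from -0.36 to 0.37 for Amacr. With 3 rats a group, changes of a size within these intervals are not excluded. No member had all CMS25 arrays below the vehicle arrays (7.65% of all genes did), and Decr1 alone had them all above (4.45% of all genes did).

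**Figure D4:**
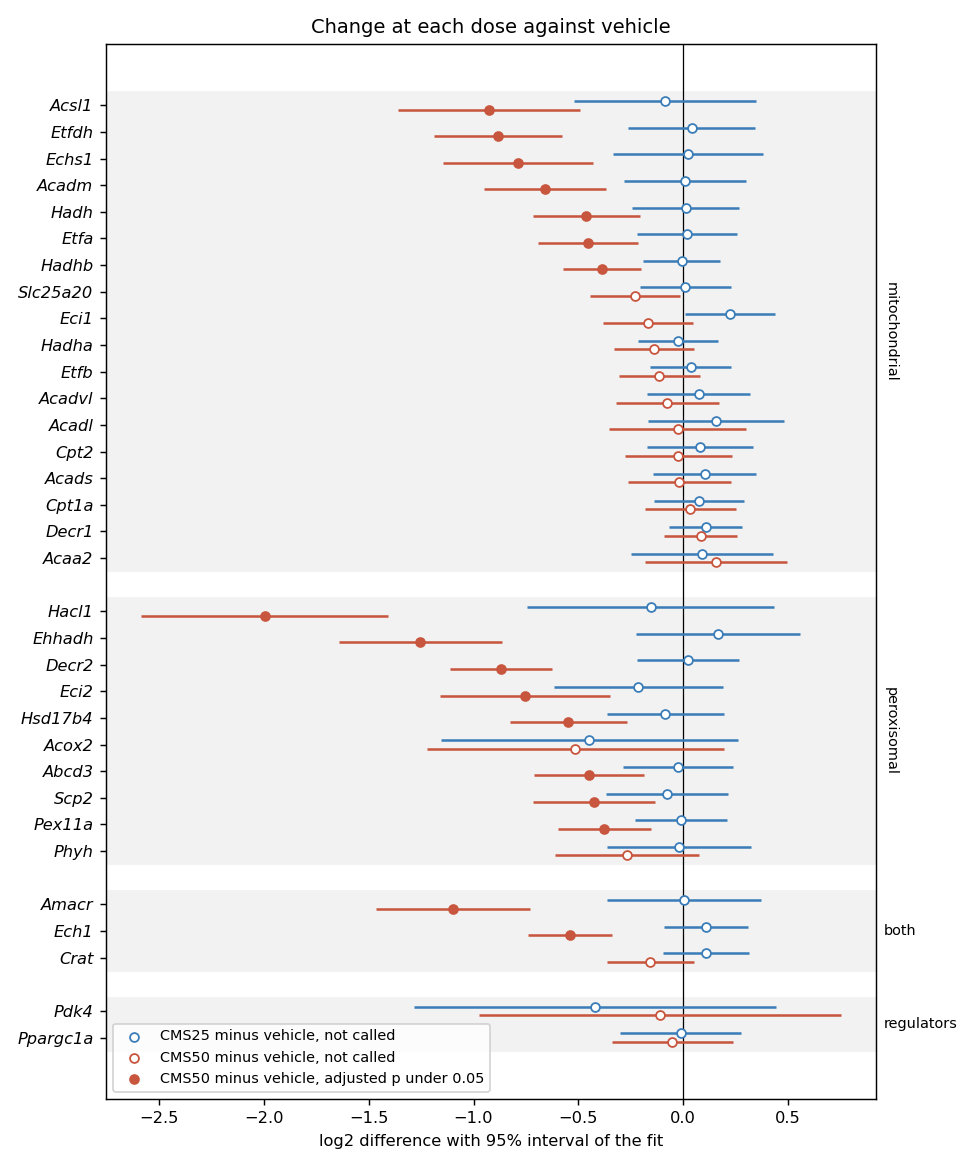
Log2 difference from vehicle of the 33 tested genes at CMS25 (blue) and CMS50 (red), with 95% intervals of the fit; filled points passed the test. None of the CMS25 points is filled and 17 of the CMS50 points are, with Hacl1 at -2.0 the farthest from 0.

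Between the doses, CMS50 kidneys were lower than CMS25 kidneys in 17 of the 33 genes and higher in 0, against 9.43% and 20.8% of all genes. This comparison shares the CMS50 arrays with the one against vehicle. The counts were 8 of 18 mitochondrial, 7 of 10 peroxisomal and 2 of 3 shared genes, and 19 of 33 genes had no overlap of arrays (15.3% of all genes), all with CMS50 lower; no gene had the reverse (30.4% of all genes). The 5 largest falls were in Hacl1 (-1.84, adjusted p = 0.00256), Ehhadh (-1.42, adjusted p = 0.00187), Amacr (-1.10, adjusted p = 0.00284), Etfdh (-0.92, adjusted p = 0.00276) and Decr2 (-0.89, adjusted p = 0.00187). Eci1 fell here (-0.39, adjusted p = 0.0162) though not against vehicle, and Scp2 did not pass here (-0.35, adjusted p = 0.0677). Without CMS50 replicate 2 the count was 11. The departure from a straight line over the doses, CMS50 minus 2 times CMS25 plus vehicle, passed the test in 0 members with limma (0.445% of all genes did, in either direction). At an unadjusted p under 0.05 there were 14 members, all with a negative departure, beside 2559 of all 10337 genes, of which 712 were negative. With array weights 3 members passed with a negative departure, beside 38 of all genes. Without CMS50 replicate 3 there were 8 such members, beside 333 of all genes.

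How firmly single genes fell at CMS50 differed. Acsl1, Acadm, Hadhb, Echs1, Etfdh, Ehhadh, Hsd17b4, Decr2, Hacl1, Amacr and Ech1, 11 of the 17, passed the test in all 18 alternative settings, including those that left out each array in turn. The other 6 did not pass in at least 1 of them. Etfa did not pass without CMS50 replicate 1 (adjusted p = 0.0511), nor Eci2 without CMS50 replicate 2 (adjusted p = 0.0556). Pex11a was lost without vehicle replicate 1 or 2 or CMS50 replicate 1 (adjusted p up to 0.0744). Abcd3 was lost without vehicle replicate 1 or 3 or CMS50 replicate 1 or 2 (up to 0.0753). Hadh was lost without vehicle or CMS50 replicate 1 or 2 and with probe sets averaged (up to 0.0945). The average took in a second Hadh probe set, 1389922_at, whose mean of 3.61 lay below the intensity minimum. Scp2 was lost without any vehicle array or CMS50 replicate 1 or 2, with cyclic loess and with the replicate block (up to 0.117).

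Other genes of the same pathways were read from lists that hold none of the 36. Of 16 further mitochondrial acyl-CoA and ketone body enzymes 13 fell (81%) and 0 rose, with a median of -0.54. Of all genes 11.4% fell and 19.6% rose. Oxct1, which lets cells burn ketone bodies, went from 12.57, 12.65 and 12.49 in vehicle to 11.21, 11.27 and 11.96 at CMS50 (log2 difference -1.09, adjusted p = 0.00382). Mmut, methylmalonyl-CoA mutase, fell by 0.94 on the log2 scale (adjusted p = 0.0166), and Acad10, an acyl-CoA dehydrogenase family member, by 0.90 (adjusted p = 0.00519). Ivd, the isovaleryl-CoA dehydrogenase of leucine breakdown, fell by 0.77 (adjusted p = 0.00439).

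Of 18 further peroxisomal enzymes and transporters 10 fell (55.6%, against 11.4% of all genes) and 0 rose (against 19.6%), with a median of -0.50. Cat, the catalase that removes hydrogen peroxide made by peroxisomal oxidases, went from 13.10, 13.04 and 13.07 in vehicle to 12.10, 12.25 and 12.74 at CMS50 (log2 difference -0.71, adjusted p = 0.00882). Far1, which makes the fatty alcohols for ether lipids, fell by 1.02 on the log2 scale (adjusted p = 0.00260), Nudt12, a peroxisomal NADH hydrolase, by 0.82 (adjusted p = 0.0238), and Acad11 by 0.61 (adjusted p = 0.00494). Among 12 peroxins, which build the organelle, 4 fell (33.3%, against 11.4% of all genes) and 0 rose (against 19.6%), with a median of -0.15. Pex7, the import receptor for proteins with the second kind of targeting signal, fell most, by 0.88 (adjusted p = 0.00381). Pex19 fell by 0.50 (adjusted p = 0.0119), Pex10 by 0.42 (adjusted p = 0.0334) and Pex13 by 0.35 (adjusted p = 0.0227).

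In the lists for lipid supply, storage and control, some genes fell and some rose, and shares are read against the 11.4% of all genes that fell and the 19.6% that rose. Of 15 nuclear receptors and cofactors 5 fell (33.3%) and 2 rose (13.3%), with a median of -0.19. Among those that fell were Prkaa2 (-0.66, adjusted p = 0.00497), a catalytic subunit of the energy sensor AMPK, and Ppard (-0.52, adjusted p = 0.0131), the receptor PPARdelta. The coactivator Ppargc1b (-0.48, adjusted p = 0.0373) and the orphan receptor Esrrg (-0.45, adjusted p = 0.0355) fell as well. Of 11 further PPARalpha targets 0 fell and 3 rose (27.3%), for so few genes not far from the shares of all genes, with a median of 0.37. Angptl4, a secreted inhibitor of lipoprotein lipase, read 8.39, 7.75 and 8.74 in vehicle and 9.66, 9.30 and 8.92 at CMS50 (log2 difference 1.00, adjusted p = 0.0311). The lipid droplet coat gene Plin2 rose by 0.88 (adjusted p = 0.0274) and Ucp2, an inner membrane carrier, by 0.76 (adjusted p = 0.00925). These 3 rose in the kidneys in which 17 members fell, and a link of either to PPARalpha was not tested. Of 13 uptake, binding and activation genes 1 fell (7.69%) and 2 rose (15.4%), shares near those of all genes, with a median of -0.24. Fabp5, a fatty acid binding protein, fell by 1.47 (adjusted p = 0.0131). Acsl5, an acyl-CoA synthetase, rose by 0.61 (adjusted p = 0.00976), and Acaca, the carboxylase of fatty acid synthesis, by 0.47 (adjusted p = 0.0493). Of 13 lipid synthesis and storage genes 2 fell (15.4%) and 3 rose (23.1%), again near the shares of all genes, with a median of 0.08. The desaturase gene Fads1 rose by 0.87 (adjusted p = 0.0122), the droplet protein gene Plin3 by 0.47 (adjusted p = 0.0295) and Dgat1 by 0.41 (adjusted p = 0.0132), whereas Dgat2 fell by 0.54 (adjusted p = 0.0384); the last 2 encode enzymes that complete triglycerides. At CMS25 none of these lists had a member that passed the test.

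**Figure D5:**
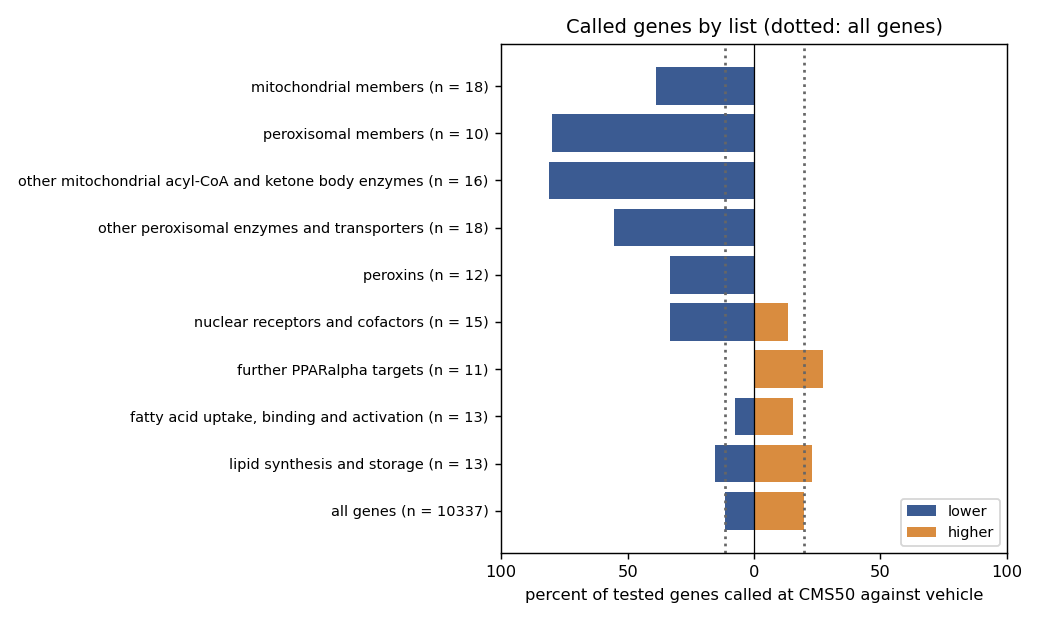
Percent of tested genes in each list that fell (left) or rose (right) at CMS50 against vehicle, with the same shares of all genes as dotted lines at 11.4% and 19.6%. Bars of the 2 member groups and of the further mitochondrial and peroxisomal enzymes reach left only, and that of the further PPARalpha targets right only.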

How the data were processed

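RNA from 9 rat kidneys was hybridised to Affymetrix 3′ expression arrays, 1 array per rat. The deposited values are log2 intensities made with RMA in Affymetrix Expression Console, per the submitters' processing notes, of unstated version. RMA equalises the arrays' distributions, so a shift of all genes together cannot be seen. The values were used as deposited, with 0 missing.

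Probe sets were named from the supplied platform annotation. Where a gene had several single-gene probe sets, the brightest by its mean of all 9 arrays stood for the gene; a mean of at least 5 was required. A joint limma model of the 3 groups (lmFit, eBayes; limma 3.58.1, R 4.3.3) was used, with Benjamini-Hochberg adjustment over 10337 genes and 95% intervals of the fit. The fit was tested on simulated data. Log2 differences compare 1 probe set between groups, and levels of different genes were not compared. For arrays, their number limits the precision.

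The members and the further gene lists were chosen with earlier results of these data known. Values in every array were given for the 12 largest changes among genes that passed at CMS50, the 5 largest between the doses, the 3 smallest, and Cpt1a, Ppara, Ppargc1a, Pdk4, Acadm, Hadha, Ehhadh and Acsl1, and up to 4 called genes were named from each further list. Acox2, Hadhb and the second Cpt1a probe set were given in full after their values were seen. The labels call the arrays of a group biological replicates and give no batch. Whether the replicate numbers pair the arrays could not be told from the values. Deviations from the group means correlated over 0.1 in 3 of 9 same-number pairs, with r from -0.18 to 0.26. The different-number pair of vehicle 2 and CMS25 3 reached 0.22. The main fit left the arrays unpaired. The highest correlation between any arrays was 0.989, so no array was a copy of another. Other settings were cyclic loess scaling, no minimum or a minimum of 6, averaged or separate probe sets, a trended robust variance, array weights, a fit of only the groups compared, the replicate block and each array left out. Averaging took in all single-gene probe sets of a gene, also those below the minimum. Plots used matplotlib 3.10.9 (Python 3.11.15).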

Additional observations from a re-analysis of the deposited data

How the results depend on the processing

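Of the counts of members that passed the test, 121 alternative values stayed within 1.5 times the value reported, or at 0 where that was 0. The remaining 4 did not. Most of the 121 are counts reported as 0 that stayed 0, so their number says little about the counts of genes that fell. Those counts are given by their ranges. At CMS50 against vehicle 12 to 17 members fell when each array was left out in turn, and 16 to 19 under the other settings. Between the doses the leave-one-array-out range was 11 to 19, with 11 without CMS50 replicate 2. The departure from a straight line passed in 1 member with trend and robust variance, in 3 with array weights and in 0 to 8 without single arrays, with 8 without CMS50 replicate 3; the cause was not tested. With the replicate number as a block, 16 members fell at CMS50 against vehicle, 17 between the doses and 0 at CMS25, and Scp2 lost its call. The median of the mitochondrial genes at CMS50 moved from -0.15 to -0.10 with cyclic loess and to -0.24 with probe sets averaged; the cause was not tested.

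Of the single genes given in every array, differences that had not passed the test changed sign in 12 cases at CMS50 against vehicle. Acadl was 0.039 with cyclic loess and Cpt1a -0.25 with probe sets averaged. The other 10 came from leaving out arrays: the value ranged from -0.12 to 0.099 for Acadl, from -0.037 to 0.11 for Cpt1a, from -0.15 to 0.032 for Ppargc1a, from -0.063 to 0.022 for Acads, from -0.35 to 0.18 for Pdk4 and from -0.077 to 0.075 for Cpt2. No member that passed the test at CMS50 against vehicle changed sign under these alternatives. With 3 rats a group, small changes, such as those of Acadl, Cpt2 and Acads, are known no better than their intervals.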
